A study of Mus musculus with 2 samples.

Results

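The genes described here encode membrane carriers that move sugars, amino acids, peptides and related small molecules into and out of cells. Members were all protein-coding genes whose mouse symbol begins with Slc followed by family number 1, 2, 3, 5, 6, 7, 15, 36, 38 or 43, the letter a and a member number. The rule used symbols only and no measured value. It found 94 genes among 21474 protein-coding genes in the tables. One of them, Slc7a6os, carries a symbol of this form because it lies beside Slc7a6 and is no transporter, and it is kept and named as such. The sugar families Slc2 and Slc5 hold 12 and 13 of the genes, and the largest family is Slc6 with 21.

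Samples were the intestines of B6NCrl mice at embryonic day 14.5, with total RNA over 200 nucleotides long sequenced from 10 ng as 2 libraries. No genotype change, transgene or treatment is given, and both libraries belong to the same group, so there is no contrast between conditions and no p-value. Each library came from 1 pup, per the labels, with different collection days, and the labels call the sex of each pooled. Levels are in TPM, the abundance of a transcript per unit of length as a share of all transcripts in a library, and are given as the mean of both libraries ± SD (n = 2). Detected means at least 1 TPM in both libraries.

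Carriers of these families work in a few ways. The Slc2 carriers let hexoses flow down their gradient, while Slc5 carriers couple uptake to sodium. Amino acids enter through sodium-driven carriers of Slc1, Slc6 and Slc38 and through exchangers of Slc7, several of which reach the membrane only as a light chain joined to a heavy chain of Slc3. In the mature small intestine, one set of carriers sits on the apical membrane of enterocytes, facing the lumen, and another on the basolateral membrane, facing the blood. Fetal gut is supplied from the circulation and does not yet absorb meals, and its proliferating cells take up sugar and amino acids for growth.

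The libraries held 34504419 (replicate 1) and 34042802 (replicate 2) estimated counts, of which 72884 and 72113 fell on the 94 members. Markers of 7 expected cell classes were detected for every gene measured: intestinal epithelium (6 genes), mesenchyme (3), smooth muscle (3), neurons (4), glia (3), endothelium (3) and macrophages (3). Of these and other marker lists, the libraries stood apart most in pancreas transcripts. The 6 exocrine pancreas markers were all higher in replicate 2, at 37.3 to 355 TPM and 1038 TPM summed, against 0 to 4.46 TPM and 9.60 TPM summed in replicate 1. The 5 islet hormone markers summed to 226 TPM in replicate 2 and 1.18 TPM in replicate 1. The defining genes Ctrb1, Ins1 and Ins2 had 0 counts in replicate 1. The 4 erythroid markers summed to 8624 TPM in replicate 2 and 5905 TPM in replicate 1, with intervals apart for Hba-a2, Hbb-bs and Klf1. Of 4 kidney markers, Nphs1 was at 1.07 TPM in replicate 2 and had 0 counts in replicate 1. The others did not share this: Pax8 was at 0.17 TPM in replicate 2 and 0.36 TPM in replicate 1, and Umod and Slc22a6 had 0 counts in both. The Y-linked genes Eif2s3y and Ddx3y were at 46.5 and 28.2 TPM in replicate 2 and had 0 counts in replicate 1, while Xist was at 0.06 TPM in replicate 2 and 77.2 TPM in replicate 1. The pattern of these genes was thus female in replicate 1 and male in replicate 2, unlike the pooled sex of the labels.

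Of the 94 members, 51 were detected, or 54.3%, against 61.3% of all protein-coding genes. One more, Slc38a5, reached 1 TPM in replicate 2 only. The detected members had a median of 9.12 TPM, against 18.4 TPM for all detected protein-coding genes. By mean level, 12 members stood at 20 TPM or more, 22 at 5 to 20, 18 at 1 to 5 and 42 below 1 TPM. The 3 highest members held 29.6% of the members' summed TPM and the 10 highest held 61.7%. For 7 of those 10, both values lay above both values of the next in order, while the ranges of Slc3a2 and Slc38a4, of Slc38a1 and Slc43a3, and of Slc6a6 and Slc1a5 overlapped. The sum over all 94 was 911 ± 5.00 TPM, which is 0.101% of gene TPM in each library. In bulk tissue, fewer cells of a type and less RNA per cell cannot be told apart.

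Close to the threshold, the members just above 1 TPM in the lower library were Slc2a5 and Slc7a14, each at 1.04 TPM, and Slc7a3 at 1.10 TPM. Just below it came Slc1a6 at 0.83 TPM, Slc38a5 at 0.74 TPM and Slc6a13 at 0.62 TPM. Of the 43 members not detected, 34 had some counts in at least one library. The other 9 had 0 counts in both, which allows levels of up to 0.0274 to 0.13 TPM by gene, the worth of 3 counts in a library. Among them were the hexose carrier gene Slc2a7, the sodium-coupled carrier genes Slc5a10 and Slc5a12, the neurotransmitter carrier gene Slc6a5 (glycine), the renal amino acid carrier gene Slc6a18, Slc6a21, Slc7a12 and the proton-coupled carrier gene Slc36a3.

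**Figure D1:**
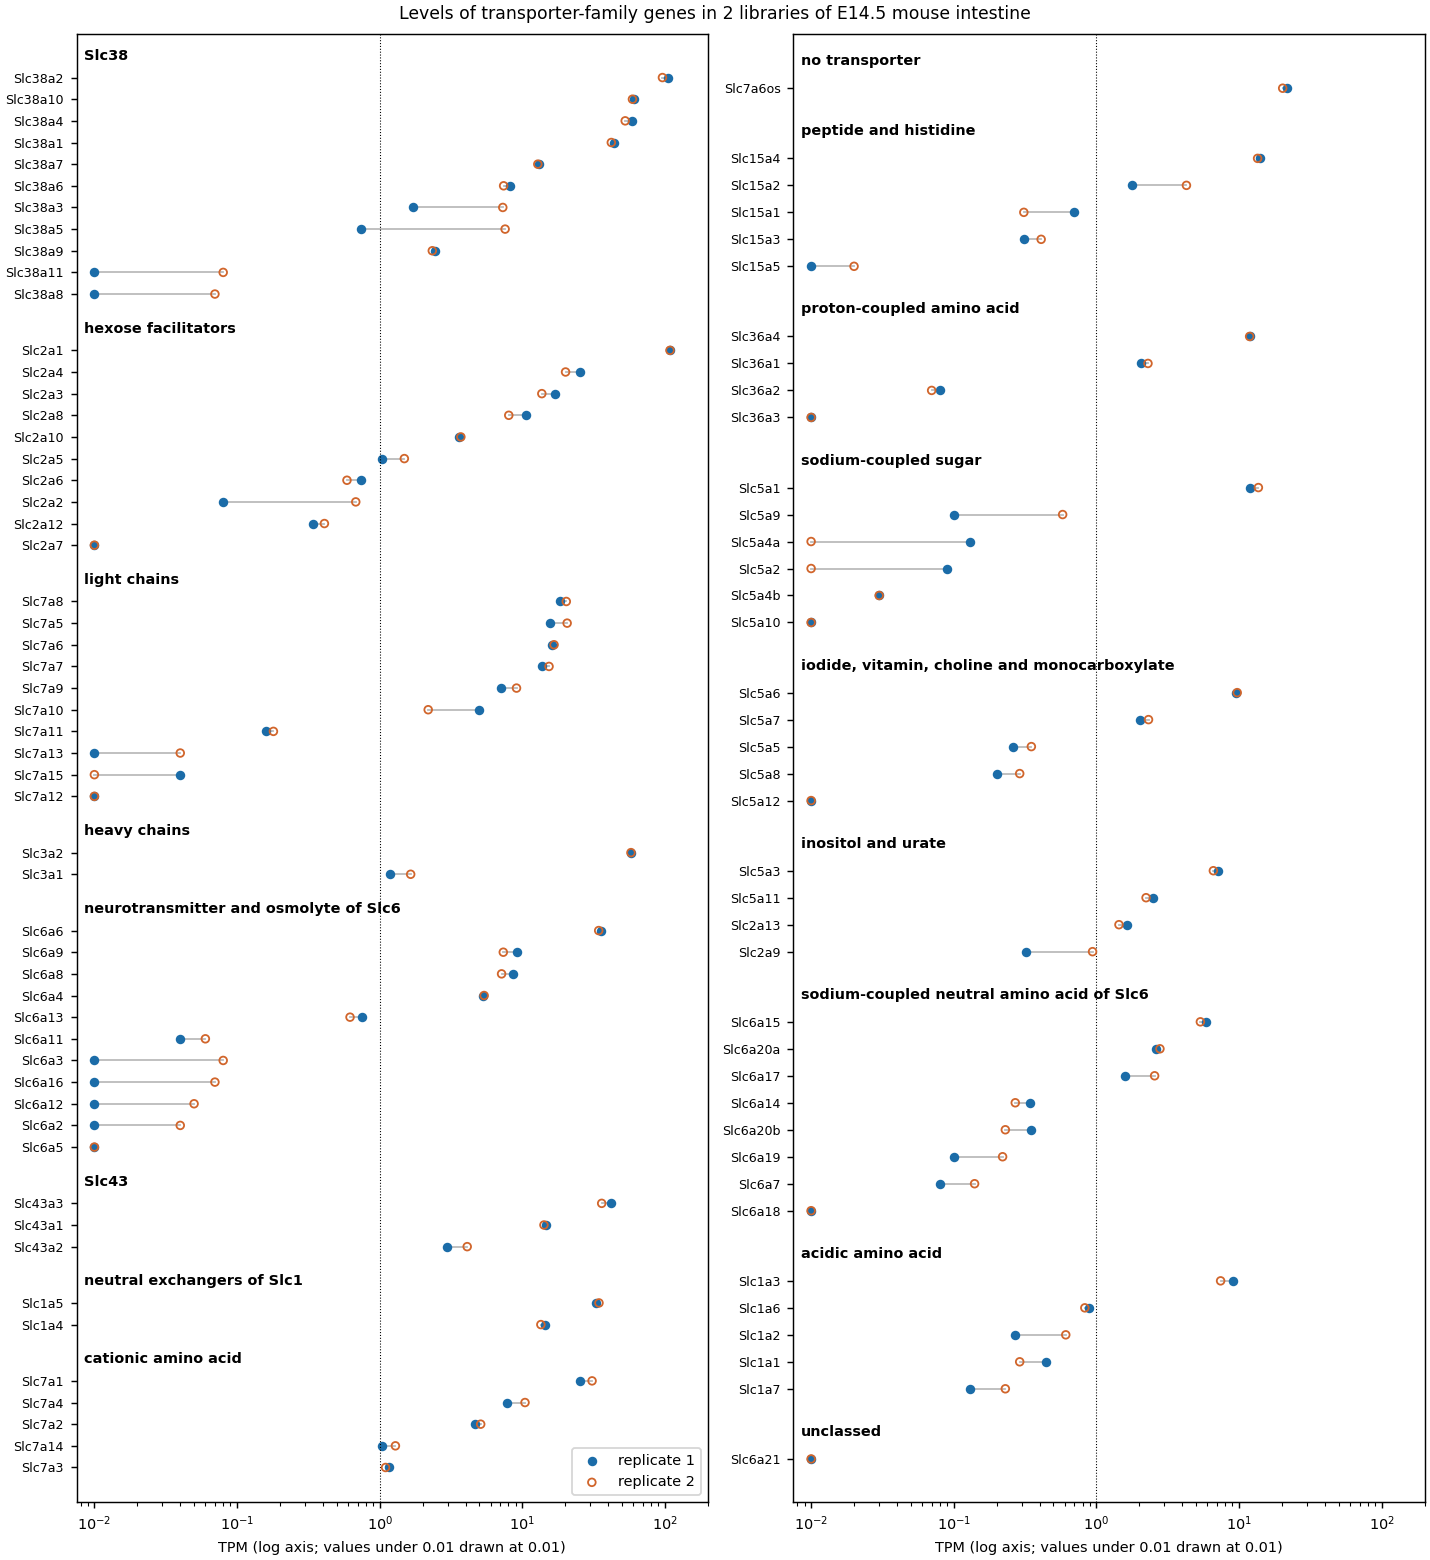
Level in TPM (log axis) of members in replicate 1 (filled points) and replicate 2 (open points), grouped by class, with the classes ordered by summed level and a dotted line at 1 TPM. Points of the abundant genes lie on top of each other, and the wide gaps are at Slc38a5, Slc38a3, Slc2a2 and genes with a few counts.

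Classes differed widely in their sums. The Slc38 family of neutral amino acid carriers led with 291 ± 5.24 TPM, 32.0% of the members' total, and 8 of its 11 genes were detected. The hexose facilitators of Slc2 followed with 162 ± 7.09 TPM and 6 of 10 detected. Light chains summed to 80.4 ± 5.93 TPM and heavy chains to 59.4 ± 0.0566 TPM. At the low end were the acidic amino acid carriers with 10.1 ± 0.99 TPM and 1 of 5 detected, the sodium-coupled neutral carriers of Slc6 with 11.3 ± 0.438 TPM and 3 of 8, and the sodium-coupled sugar carriers with 13.2 ± 1.46 TPM and 1 of 6. How far a class rested on its highest gene varied: Slc3a2 held 97.6% of the heavy chain sum and Slc2a1 held 67.0% of the hexose facilitator sum, while Slc38a2 held 34.6% of the Slc38 sum and Slc7a8 held 24.2% of the light chain sum.

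**Figure D2:**
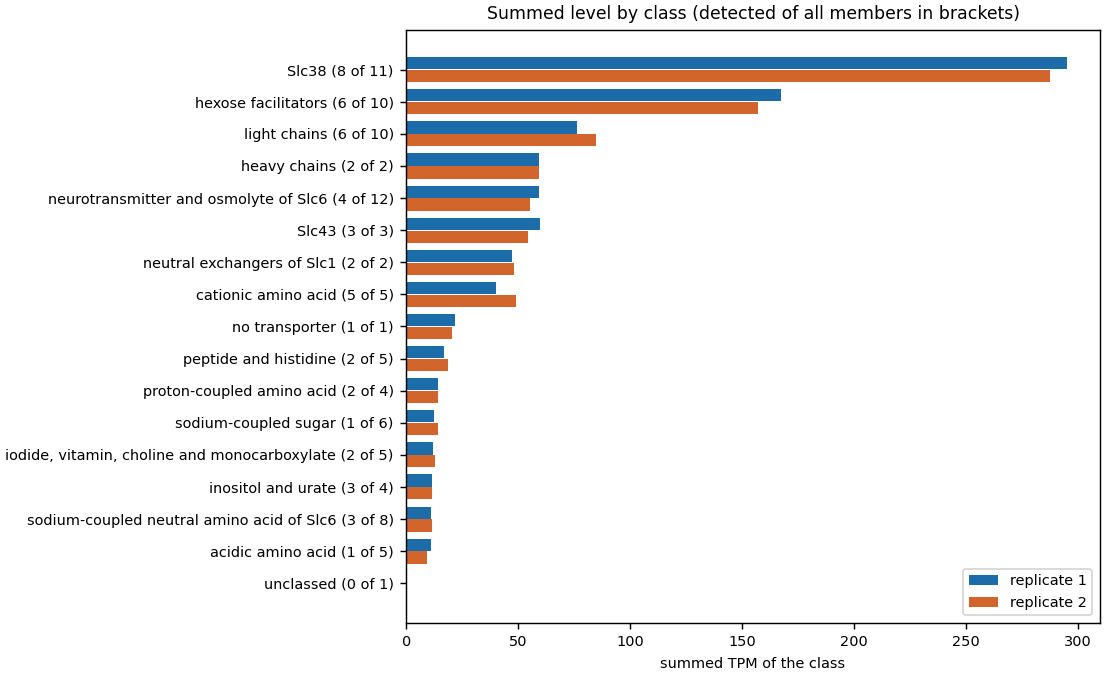
Summed TPM of each class in replicate 1 and replicate 2 (bars from 0), with the number of detected genes of all genes in the class in brackets. The Slc38 family and the hexose facilitators stand above all other classes in both libraries.

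Among sugar carriers, Slc2a1 (ENSMUSG00000028645.6, chromosome 4, 119108711 to 119137983 on mm10), the facilitator of basal glucose uptake in most proliferating cells, was the highest of all 94 members, at 109 ± 0.191 TPM. Its level was 109 TPM in each library, from 6273 counts in replicate 1 and 6366 in replicate 2, and it ranked at place 1328 of all protein-coding genes. The insulin-responsive carrier gene of muscle and fat, Slc2a4, was at 25.2 TPM in replicate 1 and 20.1 TPM in replicate 2. The high-affinity carrier gene Slc2a3, best known in neurons, was at 16.9 TPM in replicate 1 and 13.7 TPM in replicate 2. This tissue holds muscle and nerve as well as epithelium, and the data do not say which cells the transcripts came from. The intracellular hexose carrier gene Slc2a8 was at 9.34 ± 1.83 TPM and Slc2a10 at 3.67 ± 0.0636 TPM. Slc2a5, the fructose carrier gene of the brush border, was at 1.04 TPM in replicate 1 and 1.49 TPM in replicate 2.

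Slc5a1 (ENSMUSG00000011034.4, chromosome 5, 33104219 to 33162870), which encodes the sodium-glucose carrier of the enterocyte brush border, was at 11.9 TPM in replicate 1 and 13.7 TPM in replicate 2, from 1104 and 1287 counts. It held 96.4% of its class. Its nearest relatives had few or no counts, with Slc5a9 at 0.34 ± 0.339 TPM from 9 and 20 counts, Slc5a4a at 0.13 TPM in replicate 1 with 0 counts in replicate 2, and the renal carrier gene Slc5a2 at 0.09 TPM in replicate 1 with 0 counts in replicate 2. The deposited posterior mean, another estimate of the level, was higher for 2 of these genes. It was 0.83 TPM in replicate 1 and 0.71 TPM in replicate 2 for Slc5a2, and 0.58 and 1.04 TPM for Slc5a9. The deposited intervals of Slc5a2 lay above its TPM in both libraries. Of the inositol and urate carriers, the osmotically regulated inositol carrier gene Slc5a3 was at 6.89 ± 0.403 TPM, Slc5a11 at 2.36 ± 0.184 TPM and Slc2a13 at 1.54 ± 0.148 TPM. Slc5a3 shares its locus with Mrps6 on the same strand, so part of its reads may belong there. The vitamin carrier gene Slc5a6, which takes up biotin and pantothenate, was at 9.65 ± 0.0849 TPM, and the choline carrier gene of cholinergic neurons, Slc5a7, at 2.17 ± 0.219 TPM.

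The Slc38 family supplied several of the most abundant members, in both libraries. Slc38a2 (ENSMUSG00000022462.6, chromosome 15, 96687392 to 96699730), a sodium-coupled carrier of small neutral amino acids that is induced when amino acids are scarce, was at 106 TPM in replicate 1 and 96.1 TPM in replicate 2. Its neighbour Slc38a1, a glutamine carrier gene separated from it by 44478 bases, was at 43.2 ± 1.54 TPM. Slc38a4, known from placenta and liver, was at 55.6 ± 4.16 TPM, and the little-studied Slc38a10 at 59.7 ± 0.735 TPM. The lysosomal members were lower, with the glutamine exporter gene Slc38a7 at 13.0 ± 0.219 TPM and Slc38a9, which signals lysosomal arginine to the mTOR kinase complex, at 2.40 ± 0.0778 TPM. Slc38a6 was at 7.82 ± 0.587 TPM. Slc38a8 and Slc38a11 had 0 counts in replicate 1 and 4 and 1 counts in replicate 2. Slc38a3 and Slc38a5 differed between the libraries and are described further on.

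Heteromeric exchangers need both chains, and both were present. The heavy chain gene Slc3a2 (ENSMUSG00000010095.9, chromosome 19, 8706882 to 8723369) was at 58.2 TPM in replicate 1 and 57.8 TPM in replicate 2. The 6 light chain genes known to pair with it, Slc7a5, Slc7a6, Slc7a7, Slc7a8, Slc7a10 and Slc7a11, summed to 69.1 TPM in replicate 1 and 75.4 TPM in replicate 2. The ratio of heavy chain to summed light chains was thus 0.842 in replicate 1 and 0.766 in replicate 2. Among the light chains, the small neutral amino acid exchanger gene Slc7a8 was at 19.4 ± 1.29 TPM and the large neutral amino acid exchanger gene Slc7a5 at 15.6 TPM in replicate 1 and 20.6 TPM in replicate 2. Slc7a6 was at 16.4 ± 0.396 TPM and Slc7a7, the basolateral exporter of cationic amino acids, at 14.6 ± 1.2 TPM. The ranges of Slc7a8 and Slc7a5 overlapped, as did those of Slc7a5 and Slc7a6, so their order is not settled. The cystine-glutamate exchanger gene Slc7a11 was at only 0.17 ± 0.0141 TPM, from 31.1 and 38.2 counts.

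The other pair, of cystine and cationic amino acid uptake at the brush border, was uneven. Its light chain gene Slc7a9 was at 7.05 TPM in replicate 1 and 9.11 TPM in replicate 2, while its heavy chain gene Slc3a1 was at 1.19 TPM in replicate 1 and 1.65 TPM in replicate 2. Slc7a9 was thus 5.92-fold above Slc3a1 in replicate 1 and 5.52-fold in replicate 2. Slc3a1 overlaps Prepl on the opposite strand, and the use of strand is not given, so reads of the pair cannot be told apart. Slc7a13, which in mouse also joins Slc3a1, had 0 counts in replicate 1 and 2 in replicate 2, and Slc7a15 had 1 count in replicate 1 and 0 in replicate 2. Slc7a10, an exchanger gene of small neutral amino acids, was at 4.97 TPM in replicate 1 and 2.19 TPM in replicate 2 from only 58.2 and 42.4 counts. A short transcript of 516 bases carried 93.9% of that level in replicate 1 and 71.5% in replicate 2, and Slc7a10 overlaps Lrp3 on the opposite strand.

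The Slc1 neutral exchangers were both detected. Slc1a5, the glutamine exchanger gene of dividing cells, was at 32.8 TPM in replicate 1 and 34.5 TPM in replicate 2. The serine and alanine exchanger gene Slc1a4 was at 13.9 ± 0.587 TPM. Of the glutamate carriers, the glial gene Slc1a3 was at 8.24 ± 1.15 TPM and no other was detected, with Slc1a6 at 0.86 ± 0.0424 TPM and the epithelial and neuronal gene Slc1a1 at 0.365 ± 0.106 TPM. Slc1a2, the main glutamate carrier gene of astrocytes, was at 0.44 ± 0.24 TPM, but its deposited interval in replicate 1 ran from 1.02 to 4.0 TPM and did not hold the TPM itself. The deposited intervals are centred on another estimate, a posterior mean. They held the TPM in both libraries for 32 of the 34 members at a mean of 5 TPM or more, and for 65 of all 94.

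All 5 genes of the cationic amino acid class were detected. Slc7a1, the general carrier gene of arginine and lysine, was at 25.5 TPM in replicate 1 and 30.9 TPM in replicate 2. Slc7a4, a relative for which transport is not established, was at 9.12 ± 1.89 TPM, Slc7a3 at 1.14 ± 0.0495 TPM and the lysosomal gene Slc7a14 at 1.17 ± 0.177 TPM. Slc7a2 (ENSMUSG00000031596.11, chromosome 8, 40862396 to 40922308) was at 4.66 TPM in replicate 1 and 5.11 TPM in replicate 2. It makes proteins of low and high affinity for arginine from alternative coding exons, so the transcripts that carry each are of interest. Transcript Slc7a2-201 held 51.1% of the level in replicate 1 and 46.5% in replicate 2, and Slc7a2-202 held 42.2% in each. Both have 12 exons, and exon 7 is a coding exon that they do not share: 137 bases in Slc7a2-201 (chr8:40908398-40908534, GRCm38, plus strand) and 140 bases in Slc7a2-202 (chr8:40908056-40908195, plus strand). The exon sequences are shown to let both forms be compared, with capitals at bases that are identical in a global alignment.
Slc7a2-201 exon 7: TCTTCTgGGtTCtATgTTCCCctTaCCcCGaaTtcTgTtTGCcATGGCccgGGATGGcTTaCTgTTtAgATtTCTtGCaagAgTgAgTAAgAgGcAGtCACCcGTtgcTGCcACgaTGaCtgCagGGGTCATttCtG
Slc7a2-202 exon 7: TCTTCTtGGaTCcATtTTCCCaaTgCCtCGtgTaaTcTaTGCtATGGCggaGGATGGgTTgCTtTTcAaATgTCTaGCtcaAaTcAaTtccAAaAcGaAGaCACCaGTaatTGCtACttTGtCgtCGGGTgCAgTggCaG
Of 135 aligned bases 87 were identical, 64.4%. With near-equal shares in both libraries, neither form was dominant in this tissue. Which of the transcripts gives the high-affinity form is not assigned here.

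Slc6 was led by an osmolyte carrier. The taurine carrier gene Slc6a6 was at 34.9 ± 0.827 TPM, the glycine carrier gene Slc6a9 at 8.24 ± 1.25 TPM and the X-linked creatine carrier gene Slc6a8 at 7.87 ± 0.997 TPM. The serotonin carrier gene Slc6a4 was at 5.27 TPM in replicate 1 and 5.40 TPM in replicate 2. The carriers of noradrenaline (Slc6a2), dopamine (Slc6a3) and GABA (Slc6a11) were each at 0.08 TPM or below in both libraries, and Slc6a13, which carries GABA and taurine, was at 0.685 ± 0.0919 TPM. Among the neutral amino acid carriers of Slc6, Slc6a15, known from neurons, was at 5.61 ± 0.354 TPM, the proline carrier gene Slc6a20a at 2.71 ± 0.113 TPM and the vesicular gene Slc6a17 at 1.59 TPM in replicate 1 and 2.56 TPM in replicate 2. Of the Slc6a17 level, 96.9% in replicate 1 and 87.1% in replicate 2 lay in transcripts annotated as not coding. Of 12 members listed for neurons and glia, 6 were detected, against 61.3% of all protein-coding genes, and 2 had 0 counts in both libraries.

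The Slc43 genes were all detected, with the purine nucleobase carrier gene Slc43a3 at 39.1 ± 4.31 TPM, the branched-chain amino acid carrier gene Slc43a1 at 14.4 ± 0.368 TPM and the neutral amino acid exit carrier gene Slc43a2 at 3.55 ± 0.792 TPM. Slc15a4, the lysosomal carrier gene of histidine and peptides, was at 13.8 ± 0.41 TPM and its relative Slc15a3 at 0.36 ± 0.0707 TPM. The kidney and brain peptide carrier gene Slc15a2 was at 1.79 TPM in replicate 1 and 4.28 TPM in replicate 2, and Slc15a5 had 0 and 1 counts. In the proton-coupled family, which carries small amino acids such as proline, Slc36a4 was at 11.9 TPM in each library, Slc36a1 at 2.17 ± 0.184 TPM and Slc36a2 at 0.075 ± 0.00707 TPM. Of 8 members known on lysosomes, 6 were detected, against 61.3% of all protein-coding genes. They summed to 42.9 ± 2.21 TPM with the 2 that were not.

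Carriers of mature absorption differed widely in level. Of 13 genes listed for the apical side, 8 were detected, a share close to the 61.3% of all protein-coding genes, with a sum of 74.6 ± 2.65 TPM, and 46.8% of it was Slc6a6, which many tissues express. Of 6 listed for the basolateral side, 5 were detected, beside the same 61.3%. The 6 summed to 112 ± 3.84 TPM, and 51.6% of it was Slc3a2. Detected apical genes included Slc6a6, Slc5a1, Slc5a6, Slc7a9, Slc6a20a, Slc36a1, Slc3a1 and Slc2a5, as given above. Of the other 5, the peptide carrier gene Slc15a1 was at 0.70 TPM in replicate 1 and 0.31 TPM in replicate 2, from 49 and 22 counts. The main neutral amino acid carrier gene of the adult brush border, Slc6a19, was at 0.10 TPM in replicate 1 and 0.22 TPM in replicate 2, from 9 and 19 counts. Its deposited posterior mean, another estimate of the level, was 0.54 TPM in replicate 1 and 0.61 TPM in replicate 2, and the deposited intervals, 0.19 to 0.97 TPM and 0.28 to 1.03 TPM, lie above the TPM values. Slc1a1, Slc6a14 and the monocarboxylate carrier gene Slc5a8 were at 0.365 ± 0.106, 0.305 ± 0.0495 and 0.245 ± 0.0636 TPM. On the basolateral side the gene not detected was Slc2a2, the glucose exit carrier of enterocytes, at 0.08 TPM in replicate 1 and 0.68 TPM in replicate 2, from 3 and 34 counts. Sodium-driven glucose entry thus had a transcript above 10 TPM in both libraries, while Slc2a5, Slc15a1, Slc6a19 and Slc2a2, for fructose, peptides, neutral amino acids and basolateral hexose exit, were each at 1.49 TPM or below.

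**Figure D3:**
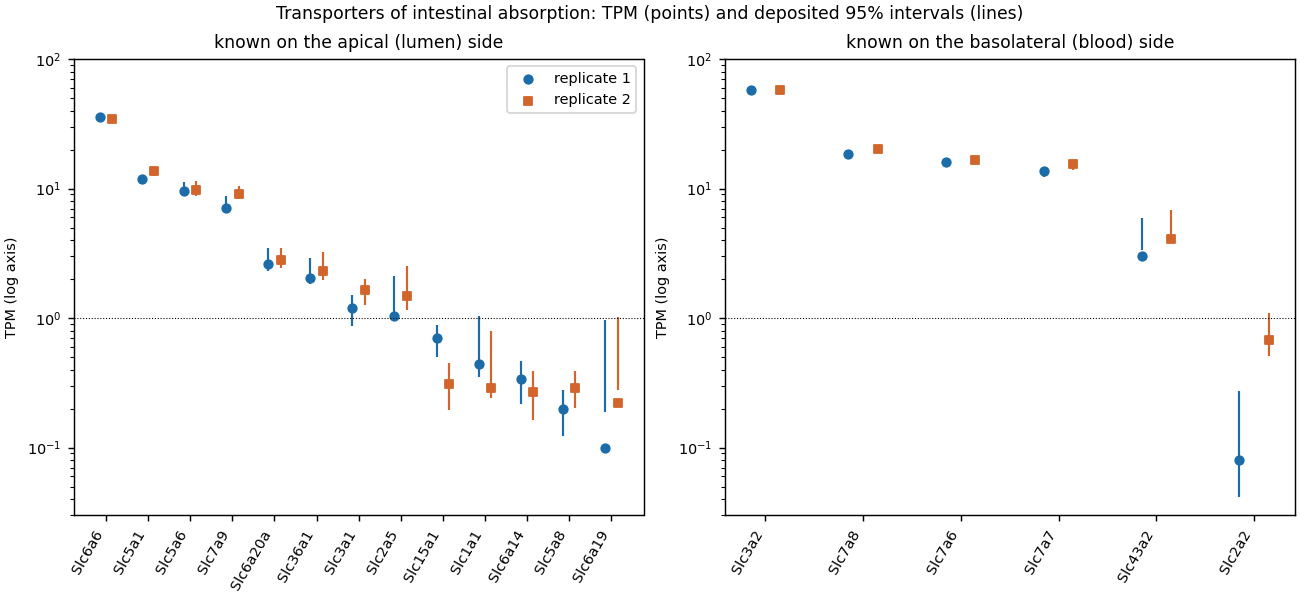
TPM (log axis, points) and deposited 95% intervals (lines) of the genes listed for apical absorption (left) and basolateral exit (right), replicate 1 in blue circles and replicate 2 in orange squares, with a dotted line at 1 TPM. The 5 apical genes that were not detected and Slc2a2 lie below the line in both libraries, and some points at low levels fall outside their own interval.

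Levels were also taken for genes that work with these carriers. Their counts of detected genes stand beside 61.3% of all protein-coding genes. Of 8 partner and scaffold genes 7 were detected, led by the scaffold genes Slc9a3r1 at 126 ± 3.49 TPM and Slc9a3r2 at 41.7 ± 3.15 TPM and the kinase gene Sgk1 at 22.5 ± 0.962 TPM. Cltrn, whose protein helps bring Slc6a19 to the membrane, was at 4.09 ± 1.85 TPM. For the ion gradients, the sodium pump subunit gene Atp1b1 was at 74.9 ± 6.01 TPM, while the apical sodium-proton exchanger gene Slc9a3 was at 0.15 ± 0.113 TPM. Of 9 genes of sugar trapping and use 7 were detected, with Txnip at 119 ± 2.56 and Hk2 at 25.3 ± 0.134 TPM. Of 7 brush border hydrolases 4 were detected, with Anpep at 52.8 ± 2.94, Dpp4 at 52.6 ± 0.318 and Enpep at 31.8 ± 0.431 TPM, and Sis and Treh had 0 counts in both libraries.

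All 10 genes of the amino acid stress response were detected, with Phgdh, which starts serine synthesis, at 236 ± 9.46 TPM, the factor gene Atf4 at 102 ± 5.67 TPM and Shmt2 at 89.1 ± 4.77 TPM. All 6 genes of lysosomal amino acid sensing were detected as well, with Lamtor1 at 123 ± 8.48, Rragc at 40.2 ± 0.933 and Mtor at 15.4 ± 0.735 TPM. Over all protein-coding genes, 61.3% were detected. Of 12 members listed as suppliers of growing cells, 11 were detected, beside the same 61.3%. The 12 held 48.6% of the members' summed TPM. This list was chosen with earlier results of these data known and holds the highest member, Slc2a1, so its share rests in part on that choice. The one not detected was Slc7a11. No gene of these partner, gradient, sugar use, hydrolase, stress and sensing lists differed between the libraries by 1 or more in log2(TPM + 1) with intervals apart.

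Replicates were close for most members. Of the 34 members at a mean of 5 TPM or more, 0 differed by at least 1 in log2(TPM + 1) with deposited 95% intervals apart, against 48 of 10689 protein-coding genes, 0.449%. The median absolute log2 difference was 0.12 for these 34 members and 0.11 for all protein-coding genes at that level, and the largest among the members was 0.38, of Slc7a4, a member that overlaps P2rx6 on the opposite strand. With no minimum level, 2 of 85 members with a value above 0 met the same size and interval conditions as higher in replicate 2, and 0 as lower. Of 17396 protein-coding genes with a value above 0, 88, or 0.506%, met them as higher in replicate 2. The share of protein-coding genes that met them as lower was not taken. The 2 members were Slc38a5 and Slc38a3, whose mean levels lie just under 5 TPM.

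Slc38a5 (ENSMUSG00000031170.10, chromosome X, 8271133 to 8280179), a sodium-coupled exchanger gene of glutamine and other neutral amino acids, was at 7.58 TPM in replicate 2 and 0.74 TPM in replicate 1. These levels rest on 315 counts in replicate 2 and 31 in replicate 1, with deposited intervals of 6.78 to 8.88 TPM in replicate 2 and 0.59 to 1.5 TPM in replicate 1. The log2(TPM + 1) difference was 2.30. Slc38a3 (ENSMUSG00000010064.11, chromosome 9, 107650634 to 107669530), a glutamine and histidine carrier gene, was at 7.30 TPM in replicate 2 and 1.71 TPM in replicate 1. It had 413 counts in replicate 2 and 82 in replicate 1, intervals of 7.39 to 9.55 TPM in replicate 2 and 1.94 to 3.59 TPM in replicate 1, and a log2 difference of 1.61. Both TPM values of Slc38a3 lay below their intervals, and its posterior means were 8.43 TPM in replicate 2 and 2.74 TPM in replicate 1. Its leading transcript was Slc38a3-209 in replicate 2 and Slc38a3-201 in replicate 1. Transcripts annotated as not coding held 11.9% of its level in replicate 2 and 40.4% in replicate 1. Of 1724 protein-coding genes within 1.5-fold of the mean level of Slc38a5, 11 had a larger absolute difference, and of 1786 within that range of Slc38a3, 18 did. Slc2a2, below detection, was also higher in replicate 2, with intervals of 0.51 to 1.1 TPM in replicate 2 and 0.04 to 0.27 TPM in replicate 1. Replicate 2 is the library with the exocrine pancreas and islet transcripts given above (1038 and 226 TPM summed, against 9.60 and 1.18 TPM in replicate 1) and the higher erythroid sum, and their part in these differences was not tested. It is also the library with Y-linked transcripts and with Xist at 0.06 TPM, and of the X-linked members Slc6a8 was at 7.16 TPM in replicate 2 and 8.57 TPM in replicate 1, Slc7a3 at 1.10 TPM in replicate 2 and 1.17 TPM in replicate 1, and Slc6a14 at 0.27 TPM in replicate 2 and 0.34 TPM in replicate 1.

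Smaller differences were seen where intervals alone are compared, whatever the size. Of 52 members at a mean of 1 TPM or more, 7 had intervals that lay higher in replicate 2, or 13.5%, against 7.22% of 13446 protein-coding genes. Another 6 lay lower in replicate 2, or 11.5%, against 15.9% of protein-coding genes. The higher ones were Slc38a5, Slc38a3, Slc15a2, Slc7a5, Slc7a4, Slc7a1 and Slc5a1, and the lower ones Slc2a8, Slc2a4, Slc2a3, Slc38a4, Slc38a2 and Slc38a1. For example, Slc7a1 was at 30.9 TPM in replicate 2 and 25.5 TPM in replicate 1, a log2 difference of 0.26, and Slc2a4 was at 20.1 TPM in replicate 2 and 25.2 TPM in replicate 1, a log2 difference of -0.31. The split of 7 and 6 became 9 and 3 with TMM factors, 8 and 3 with DESeq2 size factors or TPM over nuclear protein-coding genes, and 4 and 12 with spike-in scaling, which moves replicate 2 by -0.10 in log2. All protein-coding genes moved with the scaling too: 971 lay higher and 2137 lower in replicate 2 as deposited, against 1553 and 1276 with TMM factors, 1390 and 1462 with DESeq2 size factors, 1082 and 1975 over nuclear protein-coding genes and 426 and 4621 with spike-in scaling. Under all 5 scalings Slc38a5, Slc38a3, Slc15a2 and Slc7a5 stayed higher and Slc38a2, Slc38a4 and Slc2a4 lower. For Slc15a2, transcripts annotated as not coding held 9.92% of the level in replicate 1 and 51.7% in replicate 2. Its coding transcript Slc15a2-201 was at 0.38 TPM in replicate 1 and 1.45 TPM in replicate 2. Another coding transcript, Slc15a2-205, was at 1.24 TPM in replicate 1 and 0.61 TPM in replicate 2.

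**Figure D4:**
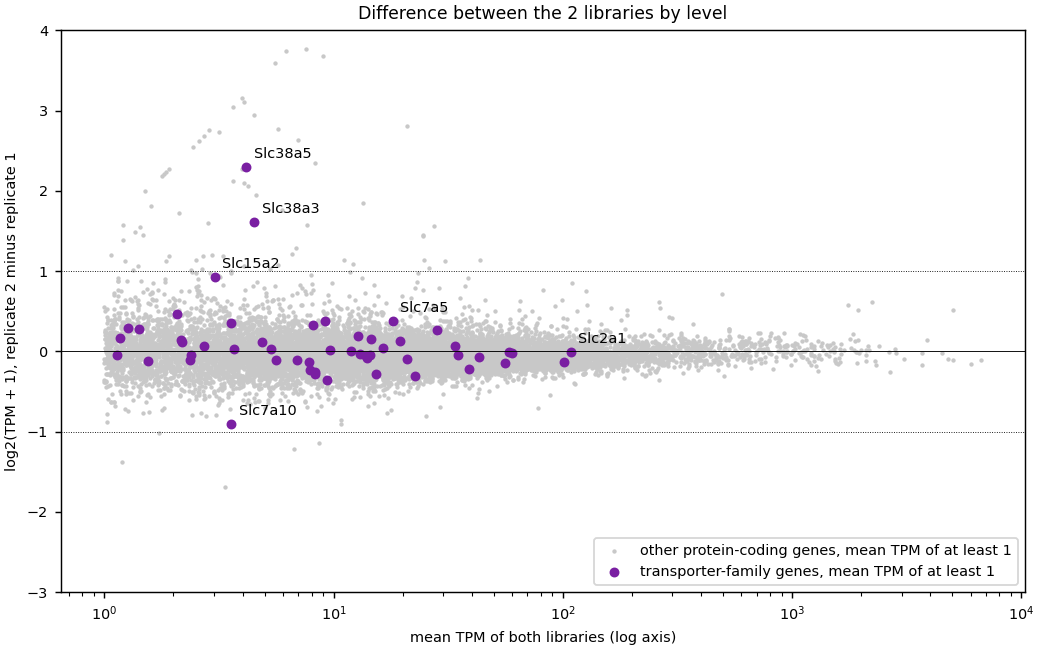
Difference in log2(TPM + 1), replicate 2 minus replicate 1, against mean TPM (log axis) for members (purple) and other protein-coding genes (grey) at a mean of 1 TPM or more, with dotted lines at differences of 1 and -1. Another 24 genes lie outside the plotted range. Members at higher levels lie near 0, and Slc38a5 and Slc38a3 lie above the upper line.

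Transcript use was mostly stable between libraries. Of the 34 members at a mean of 5 TPM or more, 7 have 1 annotated transcript and 27 have more. In 24 of these 27 the same transcript led in both libraries, and in 15 it held at least 70% in both. Slc2a1-201 held 98.4% of Slc2a1 in replicate 1 and 99.4% in replicate 2, and Slc3a2-201 held 77.0% and 76.3% of Slc3a2. The exceptions were Slc1a4, Slc1a5 and Slc6a9. Slc1a4-202 held 65.6% in replicate 1 and 26.9% in replicate 2, with Slc1a4-201 holding the rest, and the gene's own level was alike. The deposited intervals of Slc1a4-202 were 4.04 to 13.1 TPM in replicate 1 and 1.18 to 11.5 TPM in replicate 2. Those of Slc1a4-201 were 1.22 to 10.4 TPM in replicate 1 and 1.52 to 12.0 TPM in replicate 2, so which transcript led is not resolved. Among these 34 members, Slc6a8 and Slc1a5 had at least 40% of their level in transcripts annotated as not coding in both libraries. For Slc6a8, the nonsense-mediated decay transcript Slc6a8-202 held 58.5% in replicate 1 and 56.7% in replicate 2. For Slc1a5, the retained-intron transcript Slc1a5-202 held 43.1% in replicate 1 and 45.5% in replicate 2. The TPM of such a gene therefore does not all stand for coding RNA.

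**Figure D5:**
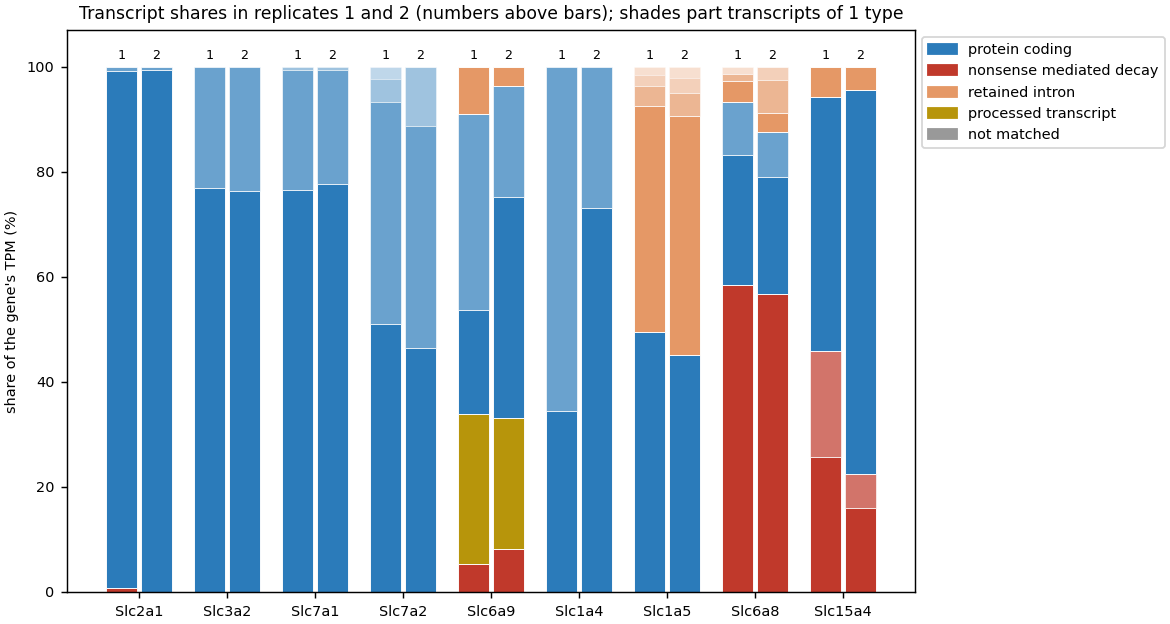
Share of each gene's TPM (%) held by its annotated transcripts in replicates 1 and 2, coloured by annotation type, with shades parting transcripts of the same type. Slc2a1, Slc3a2 and Slc7a1 look alike in both libraries, Slc1a4 has a different leading transcript in each library, with intervals that overlap, and Slc6a8 and Slc1a5 hold large non-coding shares.

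By position, 13 pairs of neighbouring members lay within 200 kb of each other. In the pairs Slc38a1 and Slc38a2, Slc43a1 and Slc43a3, and Slc7a6 and the non-transporter Slc7a6os (16.4 ± 0.396 and 20.9 ± 0.976 TPM), both genes were above 10 TPM. In other pairs a single gene was detected, as for Slc6a20a at 2.71 ± 0.113 TPM beside Slc6a20b at 0.29 ± 0.0849 TPM, a close copy with which it may share reads, and for Slc2a5 beside Slc2a7 at 0 counts. The brush border and renal genes Slc6a19 and Slc6a18, 1721 bases apart, were both below detection. In all, 16 members overlap another protein-coding gene, 15 of them on the opposite strand, among them Slc5a6, Slc7a4, Slc7a5, Slc7a7 and Slc15a4, and their reads cannot be told apart from those of the partner without strand.

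Promoter windows from RefSeq (GRCm38.p6), the 250 bases before a gene's start, were found for 70 members. Their median GC content was 60.8% for 38 detected members and 53.6% for 32 others, against 52.4% over all genes of the table. The windows of Slc2a1, the most abundant member, and Slc5a1, the sodium-glucose carrier gene, are shown since each leads its class of sugar carriers, the facilitators and the sodium-coupled ones. That of Slc2a1 ends at 216 bases, where the first annotated transcript begins (chr4:119108495-119108710, plus strand), and that of Slc5a1 spans 250 bases (chr5:33103969-33104218, plus strand). Capitals mark the E-box CACGTG.
Slc2a1: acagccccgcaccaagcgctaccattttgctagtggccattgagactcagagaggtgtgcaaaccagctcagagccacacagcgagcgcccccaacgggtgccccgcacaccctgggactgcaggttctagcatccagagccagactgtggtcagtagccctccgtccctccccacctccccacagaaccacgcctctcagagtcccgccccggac
Slc5a1: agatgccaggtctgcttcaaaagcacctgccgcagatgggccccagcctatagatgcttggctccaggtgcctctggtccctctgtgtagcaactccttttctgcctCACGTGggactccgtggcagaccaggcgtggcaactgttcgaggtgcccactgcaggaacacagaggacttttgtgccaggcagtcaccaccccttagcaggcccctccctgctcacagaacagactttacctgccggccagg
Both strands were searched for 4 motifs, and the E-box of Slc5a1 was the only match in the windows shown. A member was counted once if any of its windows matched, while shares over all are of single windows, so these are unlike units. The E-box CACGTG was in windows of 10 of the 70 members, among them Slc5a1, at position -143 from the start, and Slc38a5. It was in 6.02% of all 32851 windows. The element TGATGNAA, bound by factors of the stress response, was in 3 (Slc7a7, Slc7a11 and Slc6a21) and in 3.45% of all. TATAAA was in 8 members' windows and 12.4% of all, and GTTAATNAT, the site of the gut factor Hnf1, in 0 and 0.737%. A match describes letters in a window and no binding.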

How the data were processed

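Total RNA of E14.5 mouse intestine was quantified in 2 libraries. Expected counts, TPM values and the bounds of 95% intervals of TPM (taken here as scores) are the authors' deposited values for genes and transcripts, as is the percent share of each transcript in its gene. Per the notes deposited with the files, the assembly is mm10 with GENCODE M4. How reads were quantified, and whether strand was used, is not given in the sources used here. Synthetic spike-ins are included in TPM and made up 9.77% (replicate 1) and 10.4% (replicate 2) of it. The counts in genes were 32938592 and 32371363. Floors of 3 counts cover counting error only, and the deposited intervals cover the estimation error of each library. Neither covers the spread between pups. SDs describe these 2 libraries, each from 1 pup.

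GENCODE M21 (GRCm38) gave symbols, biotypes and coordinates, matched for 42462 of 43346 gene identifiers and 412 of the members' 429 transcripts. Members and gene lists were chosen with earlier results of these data known. Difference was log2(TPM + 1), replicate 2 minus replicate 1. Named genes were the 3 highest of each class, absorption genes, heavy and light chains, genes next to the detection threshold, genes at 0 and genes that differed. Some genes that this rule selects are left out of the text and the plot of levels. The common dispersion from edgeR 4.0.16 on expected counts rounded to whole numbers, over 17222 genes with at least 10 counts in both, was 0.013, a coefficient of variation of 11.4%. TMM factors from edgeR, DESeq2 1.42.0 size factors, spike-in scaling, posterior mean TPM, rescaling over nuclear protein-coding genes, other thresholds and leaving out each library were alternatives. Python 3.11.15 and Biopython 1.88 were used.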

Additional observations from a re-analysis of the deposited data

How the results depend on the processing

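The count of 51 detected members was 52 in replicate 2 alone and 51 in replicate 1 alone, and lay between 34 (5 TPM in both) and 66 (10 counts in both) under the other thresholds. The count of members differing at a mean of 5 TPM, 0, became 2 with no filter and 2 with TPM over nuclear protein-coding genes (Slc38a3 and Slc38a5 both times) and 1 with posterior mean TPM (Slc38a3), since both lie just under the filter, and it stayed 0 under the other 5 alternatives. The count of 13 members with intervals apart lay between 10 and 16. The median of detected members, 9.12 TPM, was 9.43 with posterior mean TPM, 11.9 over nuclear protein-coding genes and 1.81 over all members, and 9.11 to 9.13 in single libraries. The members' sum of 911 TPM was 923 with posterior mean TPM, 1193 over nuclear protein-coding genes and 890.1 without Slc7a6os, and 907 to 915 in single libraries. The absorption sum of 187 TPM was 245 over nuclear protein-coding genes and 182 to 192 in single libraries. Rescaling over nuclear protein-coding genes raises every TPM by about 1.31-fold by construction. Posterior mean TPM moved 19 of 58 levels and 8 of 17 class sums by more than their SD. Of the 58 levels it moved 8, all with a mean TPM under 1, by over 1.5-fold (Slc1a1, Slc1a2, Slc36a2, Slc5a9, Slc6a19, Slc7a11, Slc7a13 and Slc7a15). The 58 did not take in every gene named above. For example, Slc7a3, not among them, had posterior means of 1.80 TPM in replicate 1 and 1.63 TPM in replicate 2, against TPM values of 1.17 and 1.10. Interval rules need both libraries, so leaving one out gives no value. No paired analysis was possible because there is 1 group. Depth limits the low members: 28 had 1 to 100 counts in each library.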
